A study of Mus musculus with 6 samples.

Results

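The 10 microRNAs (miRNAs) described here are miR-770, miR-673, miR-493, miR-337, miR-665, miR-431, miR-433, miR-127, miR-434 and miR-136, whose hairpins follow one another across the imprinted genes Meg3 and Rtl1 on mouse chromosome 12. They were picked by name, not by measured value: every assay of the panel whose name, without species prefix and arm mark, was one of these 10 was kept. That gave 23 of 750 miRNA assays, 12 of pool A and 11 of pool B, the letter at the end of an assay's identifier. Levels were measured in whole prefrontal cortex of 3 BTBR mice (genotype BTBR T+ Itpr3tf/J) and 3 C57BL/6J mice (wild type), all untreated males aged 5 months, 1 sample per mouse. The labels give C57BL/6J as the strain background of the BTBR samples too, although BTBR is an inbred strain of its own, studied for autism-like behaviour. The TaqMan OpenArray rodent panel gave 1 cycle threshold per assay and sample, the PCR cycle at which the signal crosses a set level. A lower threshold stands for more RNA, 1 cycle is taken as a 2-fold difference, and 40 was read as undetermined. In a whole tissue, fewer cells that make a miRNA and less of it per cell cannot be told apart.

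Meg3 is a long noncoding RNA expressed from the maternal chromosome, and a miRNA hairpin lies in one of its introns. Further along, an RNA also made from the maternal chromosome runs antisense to Rtl1, a retrotransposon-derived gene expressed from the paternal chromosome. Hairpins in that antisense RNA are fully complementary to the Rtl1 messenger and direct its cleavage. Each hairpin is cut into 2 arms, 5p and 3p, either of which may be loaded onto Argonaute and then pairs with targets mainly through its seed, bases 2 to 8.

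RefSeq (GRCm38.p6) places the 10 hairpins on the plus strand within 31697 bases, from Mir770 at chr12:109563692-109563785 to Mir136 at chr12:109595327-109595388. By the RefSeq gene records, Mir770 lies within the span of Meg3, and the other 9 lie within the span of Rtl1. Only Mir770 lies in Meg3 by these records, which hold no introns, so its place within an intron was not checked. Below, miR-770 to miR-665 are called the Meg3-side miRNAs (11 assays) and miR-431 to miR-136, which are known from the Rtl1-antisense RNA, the Rtl1-antisense miRNAs (12 assays).

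The mature mouse sequences of the arms on which the results turn are given 5′ to 3′ as RefSeq has them, with the seed in capitals. The files hold no assay sequence, and assays named hsa or rno were designed on human or rat miRNAs. For 19 of the 23 assays the arm was taken from the name, from the name of the hairpin's other assay or from the current miRBase name. For the other 4 (mmu-miR-337, mmu-miR-493, mmu-miR-665 and rno-miR-673) no arm is given.
mmu-miR-770-5p: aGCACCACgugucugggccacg
mmu-miR-770-3p: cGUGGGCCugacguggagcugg
mmu-miR-673-3p: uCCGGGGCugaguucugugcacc
mmu-miR-337-5p: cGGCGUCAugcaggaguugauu
mmu-miR-431-5p: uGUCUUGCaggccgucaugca
mmu-miR-431-3p: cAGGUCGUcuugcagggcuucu
mmu-miR-127-5p: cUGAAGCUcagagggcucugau
mmu-miR-127-3p: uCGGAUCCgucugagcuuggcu
mmu-miR-434-5p: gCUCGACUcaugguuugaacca
mmu-miR-434-3p: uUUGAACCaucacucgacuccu

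The 20 arms of the 10 hairpins have 20 different seeds, so no group by shared seed can be formed. For 19 of them no other mouse miRNA in the table shares the seed, and that of miR-673-5p is shared with mmu-miR-6985-3p. Their median GC content was 55.5%, against 52.2% over the 1679 mature miRNA names in the table. The hairpins of miR-770 (94 bases) and miR-434 (94 bases) are shown, with the arms in capitals, because they hold the 3 assays called lower below.
Mir770: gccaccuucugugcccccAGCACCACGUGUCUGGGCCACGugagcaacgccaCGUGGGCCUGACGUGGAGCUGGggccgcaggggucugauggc
Mir434: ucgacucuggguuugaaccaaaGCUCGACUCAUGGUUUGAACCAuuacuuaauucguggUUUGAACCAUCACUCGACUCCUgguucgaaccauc

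Across the panel, 347 to 404 assays were detected per BTBR sample and 289 to 305 per C57BL/6J sample. On the authors' quantile-normalized thresholds the median log2 change of the 231 assays tested was -1.13, BTBR minus C57BL/6J, so the panel as a whole lay lower in BTBR on that scale. Another scale, here the global mean scale, took raw thresholds of the same cells minus the mean of that sample's assays measured in all mice. That median was -0.18 there. Assays with late thresholds moved most between scales: for the 35 with a raw mean of 24 cycles or more, the authors' values gave a median change of -1.60, the global mean scale one of 0.34. BTBR replicate 3 stood apart from its group, with normalized values that correlated at Pearson r of 0.938 and 0.918 with the other BTBR samples and 0.945 to 0.966 with the C57BL/6J samples (189 assays). The sources used here do not say which mice shared an array, and with 1 strain per array the effect of strain and that of array cannot be told apart. The sample medians of the endogenous controls differed, BTBR minus C57BL/6J, by -1.16 cycles for Y1, -0.67 for snoRNA202, -0.33 for U6 rRNA, -0.16 for snoRNA135 and 0.33 for U87. Each of these controls has 16 spots, and each was detected in fewer of them in every C57BL/6J mouse than in any BTBR mouse. U6 rRNA was detected in 16 spots per BTBR mouse, and in 13, 13 and 11 spots in the C57BL/6J mice. For U87 the counts were 15, 16 and 15 in BTBR and 10, 10 and 11 in C57BL/6J.

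Of 9 assays of neuronal miRNAs, 7 were detected in every sample. Their summed level on the log2 global mean scale was 8.52 to 9.36 in BTBR and 9.34 to 10.02 in C57BL/6J. Of 4 oligodendrocyte assays 3 were detected throughout, with sums of -3.93 to -2.58 in BTBR and -1.92 to -1.75 in C57BL/6J. Assays of other lists were detected in every sample for 1 of 6 of microglia and blood leukocytes, 1 of 2 of endothelium, 1 of 3 of red blood cells, 2 of 8 of choroid plexus and ciliated cells, 4 of 7 of skeletal muscle and 0 of 1 of liver. The summed levels of these lists overlapped between the strains, and liver gave none. The part of these differences in the results was not tested.

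The comparison asked whether cortical levels of these miRNAs depend on strain. They did not move as a block. On raw thresholds the miR-770-5p assay and both miR-434 arms were later in every BTBR mouse than in any C57BL/6J mouse, and miR-673-3p was earlier in every BTBR mouse. The hsa-miR-127 (3p), hsa-miR-431 (5p) and mmu-miR-337 assays were several cycles earlier in 2 of 3 BTBR mice than in any C57BL/6J mouse, and miR-337-5p gave a reading in all BTBR mice and in no C57BL/6J mouse. On the authors' values miR-770-5p, miR-770-3p and miR-434-5p passed the test, all lower in BTBR, while none did on the global mean scale. Over the panel 35.5% of 231 assays were lower on the authors' values. Of 237 assays with 6 raw thresholds, 18.1% were later in every BTBR mouse and 14.3% earlier. Readings in all BTBR mice alone held for 3.73% of 750 assays. Changes in both directions were thus not particular to these miRNAs.

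Of the 23 assays, 12 were detected in all 6 mice (31.6% of the panel's assays were), 7 in 1 to 5 mice and 4 in none. The 4 were hsa-miR-136, mmu-miR-433-5p, mmu-miR-493 and rno-miR-673. The share undetermined in every sample was 38.4% over the panel of 750. The authors' normalized table holds 16 of the 23, and 11 had at least 2 values in each strain and were tested by limma, fitted and adjusted over all 231 such assays. Of the 11, 3 were lower and 0 higher in BTBR at an adjusted p under 0.05, with 4 at an unadjusted p under 0.05. Over the panel 35.5% were lower and 1.3% higher, so the share of falls among these miRNAs was near that of the panel. Without BTBR replicate 1 or C57BL/6J replicate 3 none of the 3 was called, and without C57BL/6J replicate 2, or after centring the authors' values on sample medians, 1 was (miR-770-5p). Their median log2 change was -0.61, against -1.13 over all 231. It was -1.61 for the 4 Meg3-side assays, which include both arms of miR-770, and -0.61 for the 7 Rtl1-antisense assays. On the global mean scale these medians were 0.59 and 0.79, and the difference between the sides was not tested.

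None of the 11 passed in limma on the global mean scale (0 called, 5 with an unadjusted p under 0.05, with 69 of 231 over the panel). There the panel had 0.0% lower and 0.433% higher. The 11 had a median of 0.79 on that scale, against -0.18 for the panel. Of their changes 6 were positive and 5 negative, against 99 and 132 over the panel. Over all 237 assays with 6 raw thresholds, 18.1% were later in every BTBR mouse than in any C57BL/6J mouse and 14.3% were earlier. Of the 12 such assays here, 3 were later and 1 earlier.

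**Figure D1:**
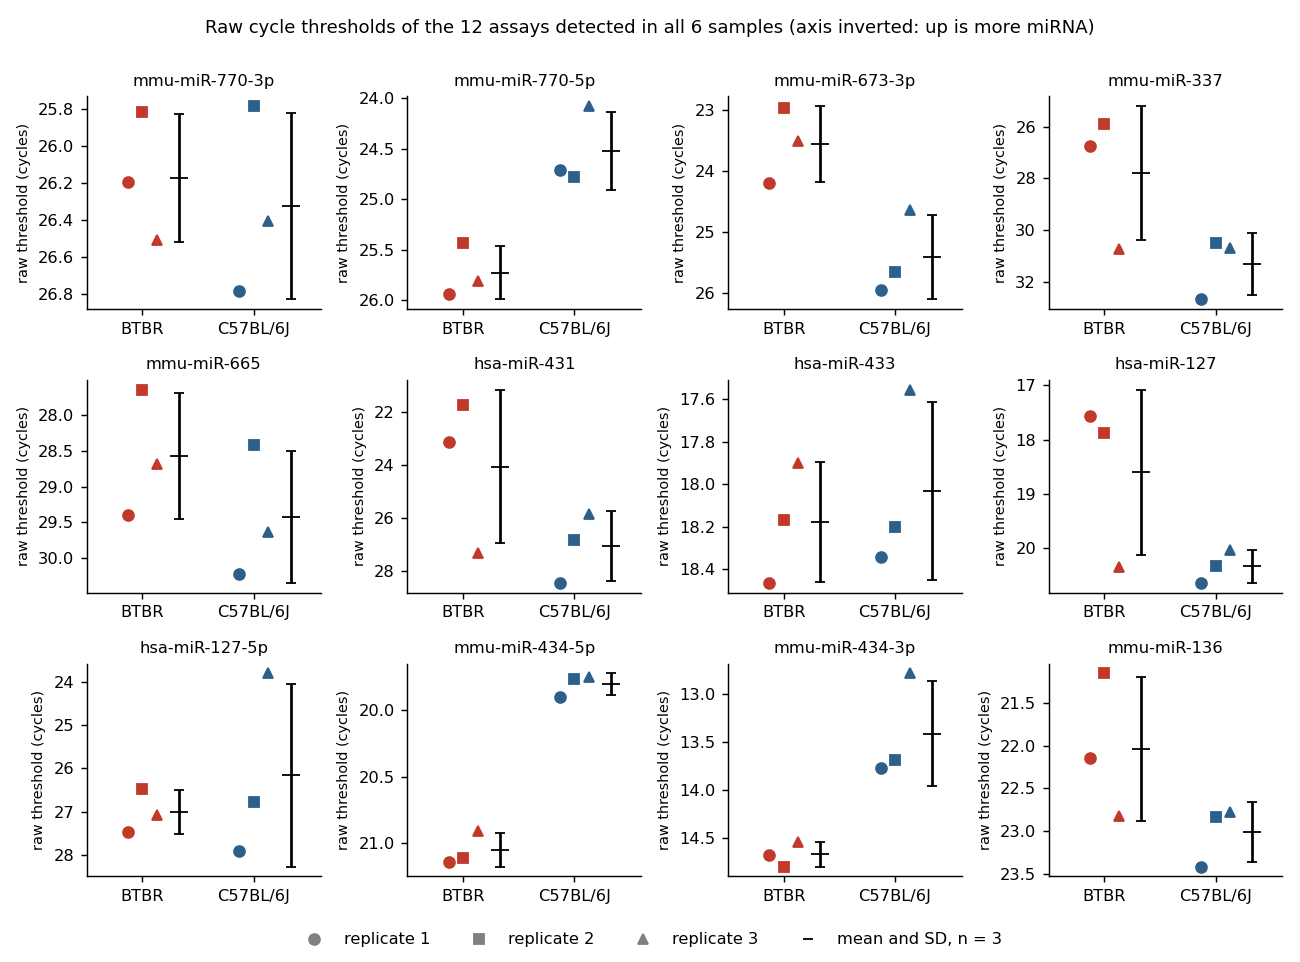
Raw cycle thresholds (y axis, cycles, inverted so that up is more miRNA) of the 12 assays detected in all 6 mice, with BTBR mice on the left and C57BL/6J mice on the right of each panel; symbols mark replicates and bars the mean and SD (n = 3). The strains do not overlap for mmu-miR-770-5p, mmu-miR-673-3p and both miR-434 arms, and BTBR replicate 3 lies near the C57BL/6J mice for mmu-miR-337, hsa-miR-431 and hsa-miR-127.

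The miRNA within Meg3, miR-770, was measured on both arms. The raw thresholds of mmu-miR-770-5p were 25.945, 25.437 and 25.811 cycles in BTBR, against 24.716, 24.777 and 24.077 cycles in C57BL/6J. Every BTBR mouse was later, by 1.21 cycles on average (25.73 ± 0.26 in BTBR and 24.52 ± 0.39 in C57BL/6J, SD, n = 3 each). The authors' normalized values were 26.98 ± 0.58 cycles in BTBR and 23.66 ± 0.35 in C57BL/6J. The log2 change was thus -3.31 ± 0.41 (standard error; limma adjusted p = 0.0233), or -2.19 relative to the panel median. The global mean scale gave -1.39 (standard error 0.24, limma adjusted p = 0.0737). The 3 BTBR values there, 5.14, 5.15 and 5.13 cycles after the sample mean, lay closer together than those of C57BL/6J, at 3.68, 4.0 and 3.58.

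The other arm gave no such separation before normalization. The raw thresholds of mmu-miR-770-3p were 26.196, 25.82 and 26.511 cycles in BTBR and 26.786, 25.786 and 26.405 cycles in C57BL/6J, which overlap. In the authors' normalized table they stand at 27.37, 29.19 and 27.91 cycles in BTBR and 25.55, 24.83 and 25.42 cycles in C57BL/6J, which do not. The fall on those values was 7.42-fold (log2 change -2.89, standard error 0.54, limma adjusted p = 0.0298), while the change on the global mean scale was -0.03 (standard error 0.33, limma adjusted p = 0.951). BTBR replicate 2 holds the latest threshold that the normalized table keeps.

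Of the next hairpin, miR-673, the 3p arm was measured in all mice. The raw thresholds of mmu-miR-673-3p were 24.194, 22.96 and 23.501 cycles in BTBR, against 25.951, 25.65 and 24.637 cycles in C57BL/6J. Every BTBR mouse was earlier, by 1.86 cycles on average. Its log2 change was 0.11 (standard error 0.41, limma adjusted p = 0.823) on the authors' values and, by the global mean, 1.68 (standard error 0.35, limma adjusted p = 0.0737), that is, 1.87 above the panel median there. The mmu-miR-673 assay of the 5p arm was undetermined in all C57BL/6J mice and in BTBR replicate 1. It read 15.79 and 12.004 cycles in BTBR replicates 2 and 3, and no change can be given from undetermined cells. The reading of 12.004 cycles was the earliest of any assay described here, ahead of 12.788 for miR-434-3p. It lies near the cutoff of 10 cycles, below which a reading did not count as detected. Whether these readings reflect the miRNA was not tested.

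The hsa-miR-493-3p assay read 24.903 and 24.847 cycles in BTBR replicates 1 and 3 and was undetermined in replicate 2, against 27.323, 26.45 and 24.566 cycles in C57BL/6J. The strains overlapped, since C57BL/6J replicate 3 was the earliest of the 5. Its log2 change was -0.33 (standard error 0.77, limma adjusted p = 0.753) on the authors' values and 1.21 (0.72) on the global mean scale.

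The hairpin of miR-337 carried the largest contrast in detection. The mmu-miR-337-5p assay had raw thresholds of 17.829, 17.179 and 16.709 cycles in BTBR and was undetermined in all 3 C57BL/6J mice. That pattern held for 3.73% of the 750 assays, and the reverse one, in all C57BL/6J mice alone, for 0.4%. With 40 as a value, the authors' deposited table lists miR-337-5p at a mean of 17.54 cycles in BTBR and 40 in C57BL/6J, with an adjusted p of 0.00589. No fold follows from an undetermined assay. Even U6 rRNA, at sample medians of 14.24 to 14.50 cycles in C57BL/6J, was detected there in only 13, 13 and 11 of 16 spots. A control spot counted as detected from 10 to below 40 cycles, and how many of the others read 40 was not counted. An undetermined cell need not mean that the miRNA is absent. The other arm, mmu-miR-337-3p, read 22.186 and 21.469 cycles in BTBR replicates 1 and 2 and was undetermined in BTBR replicate 3 and in all C57BL/6J mice. The assay named mmu-miR-337, without an arm, was detected in every mouse, at 26.753, 25.878 and 30.733 cycles in BTBR and 32.683, 30.515 and 30.696 cycles in C57BL/6J. Here BTBR replicate 3 lay within the C57BL/6J range and the other BTBR mice several cycles before it. With all detected cells on the global mean scale its log2 change was 3.12 (standard error 1.21, limma adjusted p = 0.173). The sign turned on the authors' scale with late readings kept, at -1.83 (standard error 1.93, limma adjusted p = 0.472).

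The mmu-miR-665 assay shows the largest gap between the raw and the normalized table. Its raw thresholds were 29.393, 27.647 and 28.682 cycles in BTBR and 30.223, 28.416 and 29.636 cycles in C57BL/6J. They overlapped, with BTBR 0.85 cycles earlier on average. In the normalized table all 3 BTBR cells stand at 40, while the C57BL/6J cells stand at 29.04, 27.37 and 27.28 cycles. The authors' deposited table gives miR-665 a ratio of BTBR to C57BL/6J of 0.000227 with an adjusted p of 0.0211, that is, lower in BTBR. With all detected cells on the global mean scale the log2 change was 0.46 (standard error 0.58, limma adjusted p = 0.605), opposite in sign and not past the threshold. On the authors' scale with late readings kept, miR-665 was lower in BTBR, at -6.29 (standard error 0.67, limma adjusted p = 0.0132). Over the 16 assays in the normalized table, 8 cells with a raw reading stand at 40, 7 in BTBR and 1 in C57BL/6J. Of the 16 assays, 2 (miR-770-5p and miR-665) are lower in BTBR at an adjusted p under 0.05 in the authors' deposited table, and 1 (miR-337-5p) is higher. The shares over all 306 assays there are 7.52% lower and 8.17% higher.

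Among the Rtl1-antisense miRNAs, miR-434 gave the most even separation of the strains. The raw thresholds of mmu-miR-434-5p were 21.136, 21.107 and 20.904 cycles in BTBR, against 19.902, 19.766 and 19.756 cycles in C57BL/6J. Those of mmu-miR-434-3p were 14.671, 14.796 and 14.539 cycles in BTBR, against 13.769, 13.688 and 12.788 cycles in C57BL/6J. Both arms were later in every BTBR mouse, by 1.24 cycles for 5p and 1.25 cycles for 3p. On the authors' values the 5p arm fell, with a log2 change of -2.47 (standard error 0.41, limma adjusted p = 0.0265). The 3p arm, at -1.05 (standard error 0.39, limma adjusted p = 0.0754), was 0.08 from the panel median. Both arms moved alike on the global mean scale, with changes of -1.42 (standard error 0.28) and -1.43 (0.31), each with a limma adjusted p of 0.0737, or -1.24 and -1.25 relative to the panel median.

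The pattern of miR-127 and miR-431 differed from that of miR-434. The hsa-miR-127 assay, for the 3p arm, read 17.573, 17.884 and 20.358 cycles in BTBR, against 20.652, 20.337 and 20.036 cycles in C57BL/6J. The hsa-miR-431 assay, for the 5p arm, read 23.127, 21.736 and 27.295 cycles in BTBR, against 28.441, 26.835 and 25.835 cycles in C57BL/6J. For both, BTBR replicates 1 and 2 were earlier than every C57BL/6J mouse and BTBR replicate 3 lay within the C57BL/6J range. Together with mmu-miR-337 these were 3 of 12 assays in which BTBR replicates 1 and 2 were over 1 cycle before the earliest C57BL/6J mouse and replicate 3 was not. Over the panel this held for 8.44% of 237 assays. The rule describes the pattern that these assays themselves show, so the comparison is no separate support.

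With all 6 mice the log2 change of hsa-miR-127 was 0.87 (standard error 0.92, limma adjusted p = 0.469) on the authors' values and 1.56 (0.74) on the global mean scale. That of hsa-miR-431 was 0.87 (standard error 1.69, limma adjusted p = 0.696) and 2.80 (1.42). Without BTBR replicate 3 both passed on the authors' values, hsa-miR-127 with a log2 change of 1.83 (limma adjusted p = 0.0471) and hsa-miR-431 with one of 2.76 (limma adjusted p = 0.0381). In that fit 3 of 9 assays were lower and 2 higher, against 41.5% and 6.13% of the panel. Replicate 3 was the BTBR mouse that lay apart for hsa-miR-127 and hsa-miR-431. Leaving it out enlarges their changes by construction, so their calls without it are no separate support. The global mean scale without BTBR replicate 3 was added after seeing the data, and there 3 of 9 were lower (miR-770-5p and both miR-434 arms). Another 4 were higher, hsa-miR-127 (log2 change 2.39), hsa-miR-431 (4.38), miR-673-3p (1.61) and mmu-miR-136 (1.14), with limma adjusted p of 0.0127 to 0.0473 among them. The panel had 10.4% lower and 11.3% higher in that fit. Leaving out any other single mouse on that scale gave 0 lower and 0 higher among these assays. For mmu-miR-136 too, BTBR replicate 3 was the mouse through which the strains overlapped, so its call there is no separate support. The opposite arm of miR-431, hsa-miR-431#, was undetermined in BTBR replicate 1 and read 25.105 and 25.101 cycles in replicates 2 and 3, against 27.136, 27.136 and 26.424 cycles in C57BL/6J. Here BTBR replicate 3 was as early as replicate 2, unlike on the 5p arm. Its change was -0.57 (standard error 0.58, limma adjusted p = 0.456) on the authors' values and, by the global mean, 1.51 (0.31, limma adjusted p = 0.0737).

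The opposite arm of miR-127 was also measured in every mouse. The hsa-miR-127-5p assay read 27.479, 26.477 and 27.086 cycles in BTBR and 27.908, 26.77 and 23.795 cycles in C57BL/6J, which overlap, with C57BL/6J replicate 3 the earliest of the 6. In the normalized table BTBR replicates 1 and 2 stand at 40, so that it could not be tested there. With late readings kept it was lower in BTBR, with a log2 change of -5.38 (standard error 1.43, limma adjusted p = 0.0433). In that fit 5 of 14 assays of these miRNAs were lower, against 31.1% of the panel. With all detected cells on the global mean scale the change was -1.25 (standard error 0.90, limma adjusted p = 0.377).

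The remaining members were miR-433 and miR-136. The hsa-miR-433 assay, for the 3p arm, read 18.465, 18.168 and 17.899 cycles in BTBR and 18.34, 18.199 and 17.556 cycles in C57BL/6J. The strains overlapped, and the difference of 0.15 cycles was smaller than the SD within either strain (0.28 in BTBR and 0.42 in C57BL/6J). Its log2 change was -0.97 (standard error 0.42, limma adjusted p = 0.114) on the authors' values, 0.16 above the panel median, and -0.33 (0.28) on the global mean scale.

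The mmu-miR-136 assay, for the 5p arm, read 22.147, 21.15 and 22.824 cycles in BTBR and 23.418, 22.839 and 22.777 cycles in C57BL/6J. The strains overlapped through BTBR replicate 3. Its log2 change was -0.61 (standard error 0.31, limma adjusted p = 0.162) on the authors' values and, by the global mean, 0.79 (0.38, limma adjusted p = 0.203). The panel also held hsa-miR-136, undetermined throughout, and a pair of assays for the opposite strand that did not match each other. The hsa-miR-136# assay read 20.951, 18.824 and 19.458 cycles in BTBR and 21.845 cycles in C57BL/6J replicate 1, the other C57BL/6J mice being undetermined. The mmu-miR-136# assay was undetermined in all BTBR mice and in C57BL/6J replicate 2, and read 31.053 and 31.049 cycles in C57BL/6J replicates 1 and 3. The 2 designs thus gave opposite strains as the one with more detections, and neither could be tested.

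**Figure D2:**
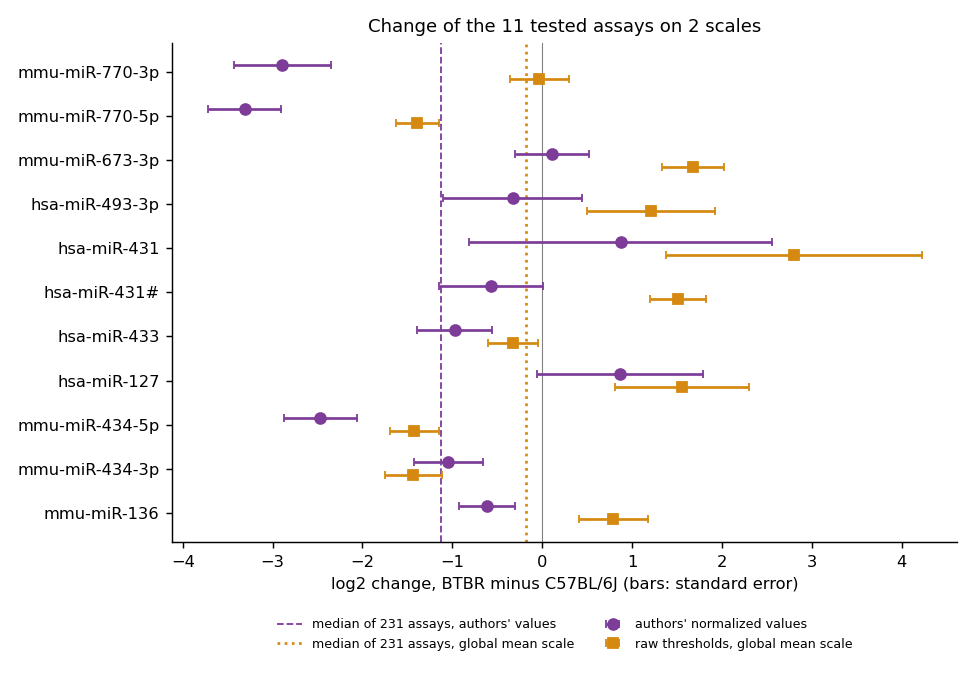
Log2 change (x axis, BTBR minus C57BL/6J, with the standard error as bars) of the 11 tested assays, on the authors' normalized values (circles) and on the global mean scale (squares), with the medians of all 231 assays, -1.13 and -0.18, as vertical lines. The 5p arm of miR-770, both arms of miR-434 and hsa-miR-433 lie below 0 on both scales, as does miR-770-3p, at -2.89 and -0.03. On the authors' values miR-434-3p and hsa-miR-433 lie above the panel median.

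In the difference between both arms of a hairpin within a sample, a constant shift of that sample cancels where the arms share a pool, while quantile normalization does not cancel. The thresholds of 3p minus 5p were compared for the 3 hairpins with both arms detected in every mouse, with exact two-sided permutation tests whose smallest p is 0.1. For miR-770, whose arms lie in different pools, the difference was 0.25, 0.38 and 0.70 cycles in BTBR, against 2.07, 1.01 and 2.33 cycles in C57BL/6J. On raw thresholds the strains did not overlap, with 0.44 ± 0.23 cycles in BTBR and 1.80 ± 0.70 in C57BL/6J (SD, n = 3 each). The shift of -1.36 cycles (standard error 0.43) runs towards less 5p relative to 3p in BTBR (exact permutation p = 0.1, 0.3 after Benjamini-Hochberg adjustment over the 3 hairpins). It was -1.13 cycles with each pool centred on its own global mean (exact permutation p = 0.2) and -0.42 on the authors' normalized values (exact permutation p = 0.4), and the strains overlapped on both.

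For miR-434, whose arms are both in pool A, the difference was -6.47, -6.31 and -6.37 cycles in BTBR, against -6.13, -6.08 and -6.97 cycles in C57BL/6J. The shift was 0.01 cycles with a standard error of 0.29 (exact permutation p = 1, adjusted 1). On the authors' normalized values it was -1.42 cycles (exact permutation p = 0.1, the smallest possible), so the size and direction of any shift depend on the scale. For miR-127, with arms in different pools, the values were -9.91, -8.59 and -6.73 cycles in BTBR and -7.26, -6.43 and -3.76 cycles in C57BL/6J. They overlapped, with a shift of -2.59 cycles (standard error 1.4, exact permutation p = 0.2, adjusted 0.3). Without C57BL/6J replicate 3 it was -1.56 cycles.

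**Figure D3:**
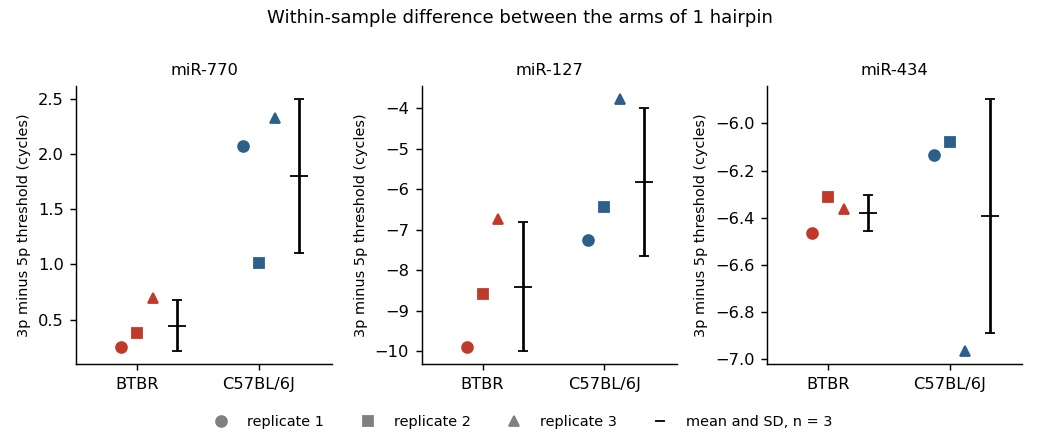
Threshold of the 3p arm minus that of the 5p arm in the same sample (y axis, cycles) for miR-770, miR-127 and miR-434, with BTBR mice on the left and C57BL/6J mice on the right; symbols mark replicates and bars the mean and SD (n = 3). On these raw thresholds the strains are apart for miR-770, at 0.25 to 0.70 cycles in BTBR and 1.01 to 2.33 in C57BL/6J, and overlap for miR-127 and miR-434; for miR-770 they overlap on pool-centred and on the authors' normalized values.

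Along the locus, the signs of the changes depended on the scale. With all detected cells on the global mean scale, 14 of the 23 assays could be tested. Of their changes 8 were positive and 6 negative, against 105 and 165 of 270 over the panel. In limma 0 passed (6 had an unadjusted p under 0.05, with 71 of 270 over the panel). The miR-434 hairpin, at -1.64 (5p) and -1.65 (3p), lies 727 bases from that of miR-136, at 0.58, and 1590 bases from that of miR-127, at 1.34 (3p) and -1.25 (5p). On the authors' values 8 of 11 changes were negative, as were 189 of 231 over the panel. There miR-136, at -0.61, had the same sign as both miR-434 arms. Both miR-136 and miR-434-3p, at -1.05, lay above the panel median of -1.13.

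**Figure D4:**
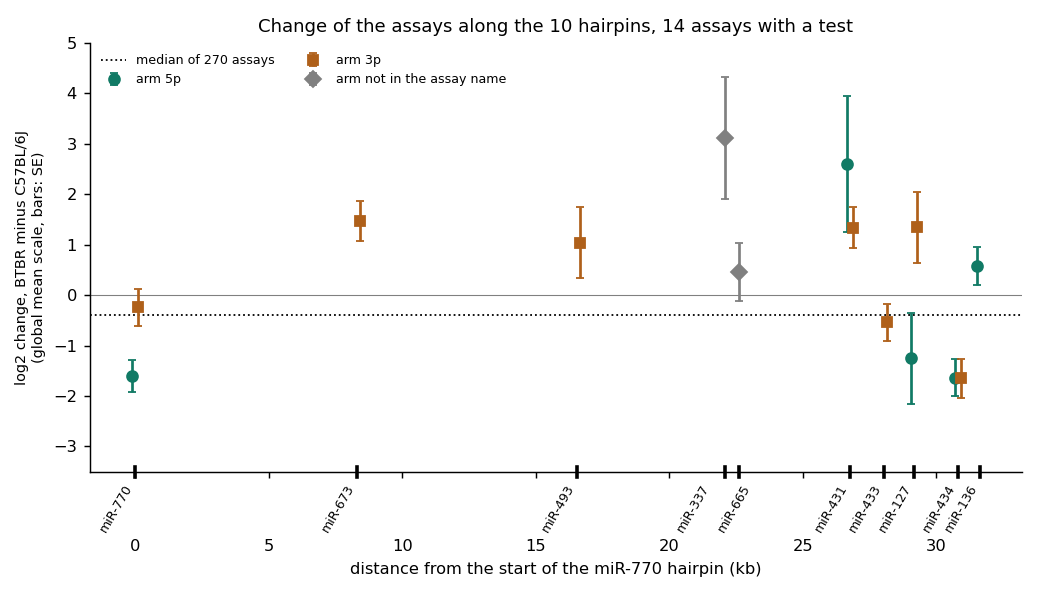
Log2 change (y axis, BTBR minus C57BL/6J on the global mean scale of all detected cells, with the standard error as bars) against the distance of the hairpin from the start of the miR-770 hairpin (x axis, kb) for the 14 assays with a test; ticks mark the 10 hairpins and the dotted line the median of 270 assays. On this scale miR-434, at -1.64 and -1.65, lies between miR-127, at 1.34 (3p) and -1.25 (5p), and miR-136 at 0.58. None of these changes passed, and miR-136 is at -0.61 on the authors' values.

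The other miRNAs of the Dlk1-Dio3 imprinted region, most of them further along the same chromosome between Rtl1 and Dio3, had 70 assays on the panel, of which 28 were tested. On the authors' values 12 of the 28 were lower and 0 higher in BTBR, against 35.5% of the panel lower. Their median log2 change was -1.13, against -0.61 for the 11 assays described here and -1.13 for the panel. None passed in limma on the global mean scale (0 called, 11 with an unadjusted p under 0.05), with medians of -0.30 for the 28, 0.79 for the 11 and -0.18 for the panel. The difference between the 2 groups of assays was not tested.

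The assays outside these 10 miRNAs whose profile over the 6 mice came closest to their mean profile were sought on the global mean scale. The measure was the root mean square difference, after each profile was centred over the mice, among 180 assays with 6 values. The closest were hsa-miR-33a# (0.18 cycles), MMU-MIR-1937B (0.23), MMU-MIR-2146 (0.23), rno-miR-352 (0.24) and RNO-MIR-409-3P (0.27), the last also from the Dlk1-Dio3 region. The mean profile was nearly flat, from -0.41 in BTBR replicate 3 to 0.41 in BTBR replicate 1, since the 9 member assays in it moved in opposite directions. These members were themselves 0.34 (mmu-miR-136) to 1.92 cycles (hsa-miR-431) away from it.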

How the data were processed

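RNA of 6 prefrontal cortices was column-purified at an RNA integrity number of 9, and 100 ng was reverse-transcribed, pre-amplified and run on the OpenArray rodent panel, per the labels' protocols. Such columns may recover short RNA less evenly than long RNA. The authors deposited raw cycle thresholds of 750 miRNA assays and 16 spots of each control, and quantile-normalized thresholds of 306 assays, per the file headers. Per the file headers, the authors' table of folds has for each assay the BTBR over C57BL/6J ratio, a log2 fold of opposite sign, a t-statistic score, a raw p-value and an adjusted one. The sources used here do not give the software, its threshold settings or the variant of the authors' test.

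The normalized values were rebuilt from the raw ones to within 3.33e-09 cycles. Thresholds below 10 became 40, and assays read in 3 or more samples were given common quantiles with 40 as a value. Values above 29.19 were then set to 40. Keeping those last values is the alternative with late readings. The cutoff of 29.19 is the latest value that the authors kept. The match in which cells stand at 40 is thus no independent check.

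For the test, normalized thresholds were multiplied by -1, 40 was treated as missing, and assays with at least 2 values in each strain were fitted with lmFit and eBayes of limma 3.58.1 (R 4.3.3), modelling strain alone and adjusting by Benjamini-Hochberg over all 231, at a threshold of 0.05. The fit was tested on simulated data. Raw thresholds count as detected from 10 to below 40. Thresholds carry no read depth, and 1 PCR per assay in 3 mice a strain limits precision. Alternatives were other scalings, detection filters, 40 as a value, late readings, a replicate block and leaving out each mouse. The members, lists and tests were chosen with earlier results of these data known. All assays of the 10 miRNAs are named. Outside them, the 5 assays nearest in profile and the controls are named, and the Dlk1-Dio3 list is given by counts.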

Additional observations from a re-analysis of the deposited data

How the results depend on the processing

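With 3 mice per strain and 1 PCR per assay, limma called 3 assays lower and 0 higher in BTBR. The count of lower assays was 0 on raw thresholds with the global mean of the same cells, the global mean of all detected cells, the global mean within each pool, the U6 rRNA median or no centring. It was 1 after centring the authors' values on sample medians, 4 with 40 kept as a value, 5 with late readings kept (miR-665 and miR-127-5p added) and 0 to 3 when each mouse was left out. The count of higher assays was 1 with 40 kept as a value (miR-337-5p), 0 to 2 when each mouse was left out and 0 under the other scalings and filters. On the global mean scale with each mouse left out, chosen after seeing the data, 0 to 3 were lower and 0 to 4 higher. The causes were not tested. Same-numbered mice had deviations that correlated at 0.08, 0.42 and -0.001, and mice of different numbers at -0.38 to 0.26. So few values cannot tell whether the numbers pair the mice. With the replicate block 2 assays were lower (miR-770-3p had an adjusted p of 0.0503) and 31 over the panel, against 82 without it. Over the panel 82 assays were lower and 3 higher; the lower count was 0 on each raw scaling, 1 with sample medians, 70 with 40 as a value (26 higher), 0 without BTBR replicate 1, 8 without BTBR replicate 2, 2 without C57BL/6J replicate 2 and 0 without C57BL/6J replicate 3. The paired arm differences were -1.36 cycles for miR-770, -2.59 for miR-127 and 0.01 for miR-434 (exact sign-flip p of 0.25, 0.25 and 1, the smallest possible being 0.25).

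Leaving out the added setting, of 181 changes of single assays, 25 kept their sign but no longer passed, 2 newly passed and 25 turned sign, and the rest kept both sign and call. In the order global mean of the same cells, of all cells, within each pool, U6 rRNA, no centring and sample medians, hsa-miR-493-3p was at 1.21, 1.04, 1.28, 1.11, 1.24 and 0.73. In the same order hsa-miR-431# was at 1.51, 1.34, 1.46, 1.4, 1.80 and 0.60, and mmu-miR-136 at 0.79, 0.58, 0.49, 0.64, 0.97 and 0.56. With no centring miR-770-3p was at 0.15. With sample medians hsa-miR-433 was at 0.20 and miR-434-3p at 0.13. With each mouse left out, hsa-miR-431 ranged from -0.20 to 2.76, miR-673-3p from -0.13 to 0.40 and hsa-miR-493-3p from -0.85 to 0.34. On the global mean scale without BTBR replicates 1, 2 and 3 and C57BL/6J replicates 1, 2 and 3 in turn, mmu-miR-136 was at 0.74, 0.50, 1.14, 0.72, 0.88 and 0.77. There hsa-miR-431# ranged from 1.39 to 1.61 (1.51 without BTBR replicate 1, 1.52 without C57BL/6J replicate 1), hsa-miR-493-3p from 0.74 to 1.84 and miR-770-3p from -0.21 to 0.24 (0.095 without BTBR replicate 3). The changes of miR-770-5p, miR-434-5p and hsa-miR-127 kept their sign under every alternative run. That of hsa-miR-127 came down to 0.03, on the authors' values without BTBR replicate 1, and reached 2.39. The arm difference of miR-434 was -1.42 cycles on the authors' normalized values (exact permutation p = 0.1) and ranged from -0.27 to 0.17 with each mouse left out. Those of miR-770 and miR-127 ranged from -1.75 to -1.09 and from -3.43 to -1.56 with each mouse left out. With each pool centred they were -1.13 and -2.37 (exact permutation p = 0.2 and 0.3), and on the authors' values that of miR-770 was -0.42 (exact permutation p = 0.4).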
